A study of Mus musculus with 6 samples.

Results

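Transcripts of 10 genes of sialic acid transfer and ganglioside synthesis were followed in mammary tumors of NeuT/ATTAC mice with and without DMHCA, a steroidal compound that activates LXR (the liver X receptor, a sterol-sensing nuclear receptor). The genes are St3gal1 to St3gal6, St6gal1, St8sia1, B4galnt1 and Ugcg. They are 10 of the 55385 genes in the deposited tables, all 10 passed the filter on low counts, and 19535 genes were tested in all. The genes were selected on the control versus DMHCA comparison of these same libraries, so their differences are given as a description, with no test.

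All mice were females carrying MMTV-NeuT, which drives a constitutively active rat ErbB2 (V664E) from a mammary tumor virus promoter, and FAT-ATTAC, which places an FKBPv-caspase-8 fusion under the FABP4 promoter, a promoter used in fat cells. AP20187 is the drug that switches the caspase on, so fat cells of the gland are lost in part and the gland becomes fibrotic. Injections of AP20187 (0.4 mg/kg) began at 6 weeks. The DMHCA group received a diet with 0.05% DMHCA, equal to 100 mg/kg, from week 8. The controls' label can be read as AP20187 with vehicle or as vehicle alone, and the study's description of AP20187-treated controls was followed. The labels name the tissue as fibrotic mammary gland, whereas the study describes tumors. Per the study, DMHCA feeding went on until a mouse developed tumors, and the age at collection of each library is not given in the sources used here.

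There were 3 control and 3 DMHCA libraries, with 46358735 to 63420673 rounded expected counts per control library and 52330999 to 55539484 per DMHCA library. Between DMHCA libraries 1 and 3 the biological coefficient of variation was 0.0327 over 13380 genes, against 0.376 to 0.579 for the other 5 pairs of libraries within a group, and 18.1% of those genes differed by a chi-square test, against 82.1% to 87.8%. These libraries were therefore counted as 1 sample (DMHCA 1+3), which left 3 control samples and 2 DMHCA samples. Nothing in the labels ties a library to a mouse, so the spread between samples may in part be technical. The luminal markers Epcam, Krt8, Krt18, Krt19 and Cdh1 summed to 2930 to 4400 TPM (transcript abundance corrected for length and depth) in the 5 samples. The markers of B and T cells were high in control 3 (251 and 139 TPM), lower in control 1 (29.3 and 14.5 TPM) and near 0 in control 2 (0.94 and 0.88 TPM). With DMHCA 1+3 and DMHCA 2, B cell markers summed to 1.965 and 1.73 TPM and T cell markers to 4.89 and 2.39 TPM. Adipocyte markers ran from 9.95 to 133 TPM in the controls and from 1.51 to 3.27 TPM with DMHCA. Libraries of whole tissue cannot tell fewer cells of a type from less RNA per cell. Among known LXR targets, Abca1, a cholesterol exporter, had a log2 fold change (DMHCA minus control) of 1.35 (SE 0.35), Abcg1, a related exporter, 0.78 (SE 0.42), and Srebf1, the transcription factor of fatty acid synthesis, 1.99 (SE 0.39).

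Gangliosides are membrane glycosphingolipids that carry sialic acid. Ugcg joins glucose to ceramide, B4galt5 and B4galt6 add galactose to give lactosylceramide, and St3gal5 adds an α2,3-linked sialic acid to form GM3, the parent of the ganglio series. St8sia1 extends GM3 to GD3, and B4galnt1 turns GM3 and GD3 into GM2 and GD2. The other ST3Gal enzymes place the same α2,3 linkage at the ends of glycoprotein and glycolipid chains: St3gal1 and St3gal2 act on galactose linked to N-acetylgalactosamine, in core 1 O-glycans and in gangliosides, while St3gal3, St3gal4 and St3gal6 act on galactose linked to N-acetylglucosamine, a step on the way to sialyl Lewis x in the case of St3gal4 and St3gal6. St6gal1 makes the α2,6 linkage on N-glycans. GM3 is known to associate with receptors of the ErbB family, and GD2 and GD3 are used as markers of neuroectodermal tumors and of subsets of breast cancer cells.

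The sequences before the start sites of St3gal5 and St3gal6 are shown because these genes had the largest differences between the groups, in opposite directions. RefSeq promoter windows on GRCm38.p6 ran from 250 bases before to 50 bases after a start, and 7 of the 10 genes had at least 1 (10 windows in all). The 250 bases before each start are printed 5′ to 3′ on the gene's own strand. Capitals mark the GC box GGGCGG, on either strand (CCGCCC on the other). The windows are chr6:72097358-72097607 (plus strand) for St3gal5, and chr16:58524254-58524503 and chr16:58523427-58523676 (minus strand) for the first and second start of St3gal6.
St3gal5: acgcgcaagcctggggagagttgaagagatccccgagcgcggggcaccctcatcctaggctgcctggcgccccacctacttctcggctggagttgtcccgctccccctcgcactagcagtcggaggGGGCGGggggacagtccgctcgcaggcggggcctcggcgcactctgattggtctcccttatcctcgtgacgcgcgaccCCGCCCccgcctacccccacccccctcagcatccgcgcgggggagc
St3gal6, first start: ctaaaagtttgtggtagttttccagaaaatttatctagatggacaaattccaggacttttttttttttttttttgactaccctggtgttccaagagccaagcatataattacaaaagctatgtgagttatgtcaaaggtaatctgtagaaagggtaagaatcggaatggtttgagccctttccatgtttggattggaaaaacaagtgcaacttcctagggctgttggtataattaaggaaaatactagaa
St3gal6, second start: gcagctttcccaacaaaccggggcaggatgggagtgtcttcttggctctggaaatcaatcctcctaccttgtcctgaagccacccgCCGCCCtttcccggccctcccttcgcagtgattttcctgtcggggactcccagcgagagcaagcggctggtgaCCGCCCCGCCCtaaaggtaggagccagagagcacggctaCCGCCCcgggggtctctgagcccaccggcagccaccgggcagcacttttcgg
The whole St3gal5 window held 72.7% G and C and 2 GC boxes, beginning 124 and 46 bases before the start. The first St3gal6 window held 38.7% G and C and 0 GC boxes, and the second 64.7% and 5 GC boxes, of which the fifth lies after the start. The median over 32851 windows was 52.7% G and C, and 35.7% of windows held a GC box. The LXR half-site AGGTCA, searched on both strands, was in none of these 3 windows, against 16.3% of all windows. It was found once in St8sia1, beginning 54 bases before the start, and once in the third window of St6gal1, beginning 101 bases before. A DR4 element (AGGTCA repeated with 4 bases between the copies) was matched exactly in 0.0152% of windows and in none of the 10 windows. A window without these letters says nothing of LXR at other places.

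The GM3 synthase gene St3gal5 and the ST3Gal gene St3gal6 were the only members of the 10 whose groups did not overlap. Over all tested genes, 13.1% had both DMHCA samples above all controls and 12.7% had both below. St3gal5 transcripts were 3.52-fold higher with DMHCA and St3gal6 transcripts 3.25-fold lower, and in both genes the DMHCA samples were nearly equal to each other. Counts below were scaled by TMM to the mean library total (normalized counts), and log2 fold changes are DMHCA minus control from the edgeR fit of all 19535 genes. The plot of normalized counts by sample shows all 10 genes.

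**Figure D1:**
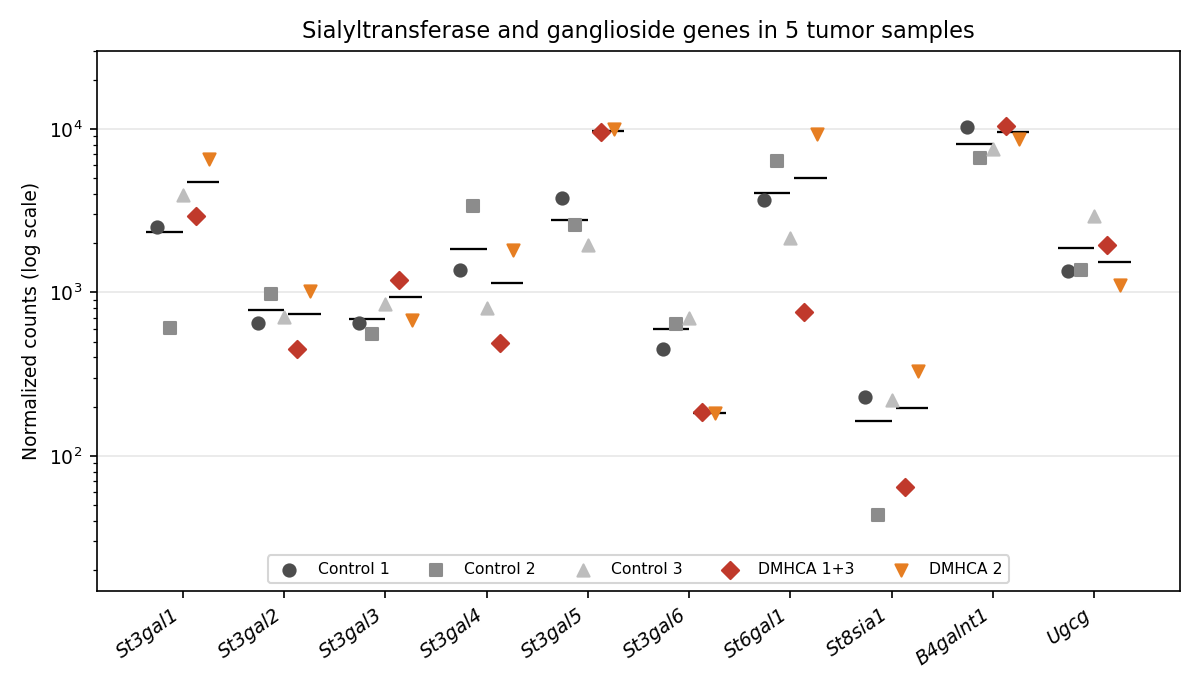
Normalized counts (log axis) of the 10 genes in 3 control samples (grey) and 2 DMHCA samples (red and orange), 1 point per sample, with group means as horizontal lines. The DMHCA points lie above all controls for St3gal5 and below all controls for St3gal6, and the groups overlap for the other 8 genes.

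St3gal5 (GM3 synthase, ENSMUSG00000056091, chromosome 6, 72097592 to 72154571, plus strand, GRCm38) had 3786, 2574 and 1939 normalized counts in controls 1, 2 and 3, and 9497 and 9990 in DMHCA 1+3 and DMHCA 2. Both DMHCA samples were above every control, and the DMHCA samples differed by 1.05-fold where the controls spanned 1.95-fold. The means were 2766 ± 939 (SD, n = 3) and 9743 ± 349 (SD, n = 2), a log2 fold change of 1.82 (SE 0.33). In TPM, which corrects for length, the 3 control libraries had 46.8, 23.5 and 22.2 and DMHCA libraries 1, 2 and 3 had 113, 133 and 115. RSEM's abundance-weighted transcript length for this gene stayed between 2268 and 2282 bases in the 6 libraries. The summed luminal markers were also above all controls in both DMHCA samples (4400 and 4063 TPM, against 2930 to 3591). In normalized counts 1 of the 5 markers, Krt8, was separated on its own. In TPM Krt18 was separated as well (842.5 to 1224 in the controls, 1888 and 1407 with DMHCA). The part of the luminal markers in the St3gal5 difference was not tested.

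Annotated transcripts inside the St3gal5 gene that share no exon with it also had higher values with DMHCA, at low counts. The unspliced model Gm29438, on the same strand, had 22.2, 11.5 and 10.9 normalized counts in the controls and 30.8 and 57.1 with DMHCA. The antisense transcript 4933431G14Rik had 11.6, 0.961 and 5.46 in the controls and 24.8 and 50.1 with DMHCA. In both, each DMHCA sample was above every control, as in 13.1% of all tested genes, and no test is given for them. Gm29438 lies on the strand of St3gal5, so its reads cannot be told apart from intronic reads of St3gal5. Whether the libraries were counted by strand is not given in the sources used here, so the same holds for 4933431G14Rik. Of the 10 tested protein-coding neighbours of St3gal5, 5 on each side, log2 fold changes ran from -0.31 to 0.76. Both DMHCA samples were above all controls in 3 of the 10 and below in 0, beside 13.1% and 12.7% of all tested genes. The highest was Polr1a, a subunit of RNA polymerase I, with 2767, 2306 and 1782 normalized counts in the controls and 3265 and 4492 with DMHCA. Neighbours were chosen after the data were seen.

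St3gal6 (ENSMUSG00000022747, chromosome 16, 58468125 to 58524243, minus strand) had 452, 642 and 695 normalized counts in controls 1, 2 and 3, and 184 and 182 in DMHCA 1+3 and DMHCA 2. Both DMHCA samples were below every control and differed from each other by 1.01-fold. The means were 597 ± 128 (SD, n = 3) and 183 ± 1.51 (SD, n = 2), a log2 fold change of -1.70 (SE 0.42). The libraries had 5.73, 5.07 and 8.61 TPM in the controls and 2.25, 2.62 and 2.42 with DMHCA. On log2(TPM + 1) the difference was -1.08, and on log2(TPM + 0.1) it was -1.31. The summed adipocyte markers (Adipoq, Plin1, Lep and Cidec) were also below all controls in both DMHCA samples. In normalized counts all 4 were separated on their own, but in TPM Plin1 overlapped (0.69 in control 2, 0.7 in DMHCA 2). Control 3 was the highest for both St3gal6 and these markers. The summed erythroid markers were lower likewise (2819 to 3782 TPM in the controls, 2628 and 1785 TPM with DMHCA). In normalized counts 2 of the 3 were separated on their own, but in TPM Hba-a1 overlapped (1081 in control 2, 1211 in DMHCA 1+3). Control 2, with the lowest adipocyte, B cell and T cell sums of the controls, was the lowest control for St3gal6 in TPM but lay above control 1 in normalized counts. The part of these cells in the St3gal6 difference was not tested. The last 1603 bases of St3gal6 overlap the end of Dcbld2 on the opposite strand. Dcbld2, a membrane receptor gene, had 1418, 1344 and 870 normalized counts in the controls and 770 and 1700 with DMHCA (log2 fold change 0.03, SE 0.42), with overlapping groups.

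These counts were set beside all genes. By edgeR with Benjamini-Hochberg adjustment, 0 of 19535 genes (0%) had an adjusted p under 0.05, and the smallest adjusted p was 0.648. An unadjusted p under 0.05 was reached by 1480 genes: 3.36% of all tested genes were higher and 4.22% lower with DMHCA, and 1 of the 10 stood in each direction, St3gal5 and St3gal6. Both DMHCA samples were above all controls in 13.1% of genes and below in 12.7%, and again 1 of the 10 stood in each. DESeq2 on the 6 libraries as separate samples called 1.46% of 19972 genes higher and 2.98% lower, and DESeq2 on the 5 samples called 0.236% of 20742 genes higher and 0.93% lower, with St3gal5 and St3gal6 among the calls of both fits. Since the 10 genes were selected on this comparison, nothing is read from these counts. The plot of fold changes shows each estimate with its standard error and its range over the alternative settings.

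**Figure D2:**
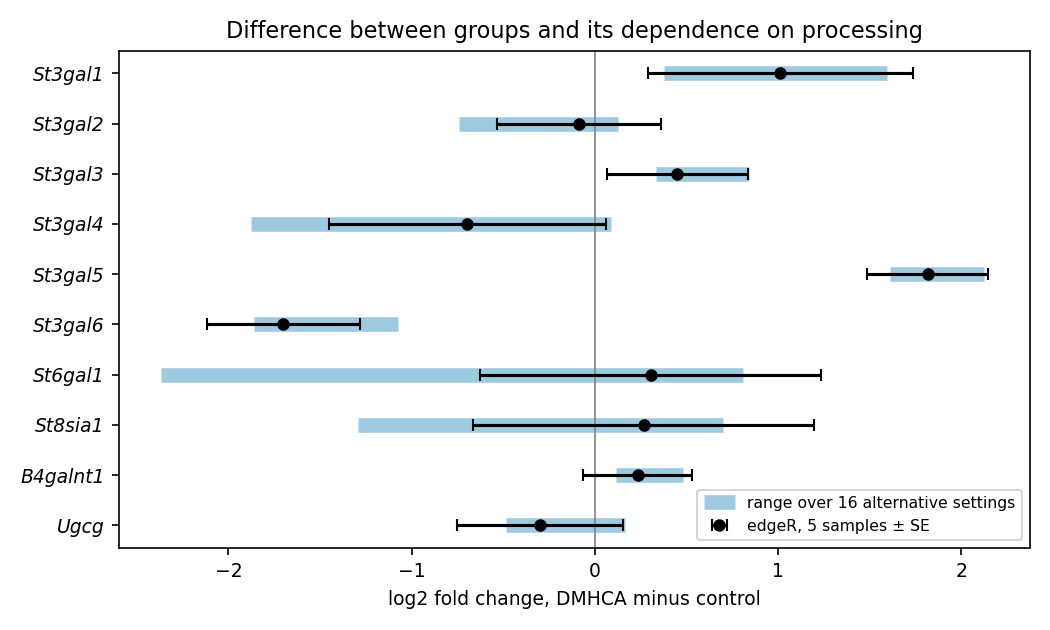
The log2 fold change of each gene, DMHCA minus control (points, edgeR on 5 samples, bars ± SE), over its range in 16 alternative settings (blue). St3gal5 stays between 1.61 and 2.12 and St3gal6 between -1.86 and -1.08, whereas the ranges of St3gal2, St3gal4, St6gal1, St8sia1 and Ugcg cross 0.

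The other ganglioside enzymes did not separate by group. B4galnt1 (GM2/GD2 synthase, chromosome 10, 127165225 to 127172330) had 10219, 6638 and 7487 normalized counts in the controls and 10432 and 8654 with DMHCA. Control 1 was close to the higher DMHCA sample, and the log2 fold change was 0.23 (SE 0.30). B4galnt1 was also the most abundant of the 10 in mean TPM. Its exons share 715 bases with Slc26a10 on the opposite strand. Slc26a10 had 667, 365 and 337 normalized counts in the controls and 254 and 164 with DMHCA, below all controls in both DMHCA samples. Ugcg (glucosylceramide synthase, chromosome 4, 59189257 to 59222833) had 1348, 1362 and 2914 in the controls and 1936 and 1110 with DMHCA, a log2 fold change of -0.30 (SE 0.46). Control 3 was the highest, and without it the difference became 0.17.

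St8sia1 (GD3 synthase, chromosome 6, 142821545 to 142964452) was the least abundant of the 10. It had 228, 43.2 and 218 normalized counts in the controls and 64.7 and 329 with DMHCA, so each group held a low and a high sample. Its log2 fold change of 0.27 (SE 0.93) became -1.29 without DMHCA 2 and -0.17 without control 2. The libraries had 0.9, 0.16 and 0.73 TPM in the controls and 0.41, 1.88 and 0.35 with DMHCA. The weighted transcript length ranged from 4386 to 7354 bases, with all 3 controls above the 3 DMHCA libraries, on 45 to 328 counts.

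St6gal1 (chromosome 16, 23224740 to 23360350) differed more between the DMHCA samples than any other of the 10. It had 3659, 6369 and 2157 normalized counts in the controls, 764 in DMHCA 1+3 and 9274 in DMHCA 2, a 12.2-fold gap between the treated samples that lay on both sides of all controls. Of all tested genes, 2.67% had a gap at least as large. The log2 fold change was 0.30 (SE 0.93) and became -2.37 without DMHCA 2. It was also below 0 on the TPM scale (-0.19 on log2(TPM + 1)) and in the fits of 6 libraries (-0.15 by DESeq2), so no direction is read from it. The DMHCA samples also stood apart in skeletal muscle markers, which summed to 672 TPM in DMHCA 1+3 and 176 TPM in DMHCA 2, with all 4 markers lower in DMHCA 2. The neutrophil sums were 11.4 and 215 TPM, and S100a8 alone made up 5.02 and 199 TPM of them. Their part in the St6gal1 gap was not tested.

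St3gal1 (chromosome 15, 67102875 to 67176830) had 2502, 609 and 3924 normalized counts in the controls and 2949 and 6515 with DMHCA. Control 2 was low and the other samples lay within a narrower range, and the log2 fold change was 1.01 (SE 0.72), or 0.38 without DMHCA 2. St3gal2 (chromosome 8, 110919922 to 110972480), which acts on similar acceptors, had 653, 980 and 703 in the controls and 451 and 1016 with DMHCA, with the DMHCA samples on both sides of the controls. Its log2 fold change was -0.09 (SE 0.45), -0.74 without DMHCA 2 and 0.13 without control 2.

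St3gal3 (chromosome 4, 117932154 to 118134914) had 647, 559 and 846 normalized counts in the controls and 1188 and 680 with DMHCA. Only DMHCA 1+3 was above all controls, and the log2 fold change was 0.45 (SE 0.38). St3gal4 (chromosome 9, 35046576 to 35119268) had 1379, 3378 and 806 in the controls and 489 and 1804 with DMHCA. Control 2 was the highest and DMHCA 1+3 the lowest. The log2 fold change of -0.69 (SE 0.76) became 0.09 without control 2 and -1.88 without DMHCA 2.

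The DMHCA samples differed by more than 2-fold in 5 of the 10 genes (St3gal1, St3gal2, St3gal4, St6gal1 and St8sia1) and in 23% of all tested genes. In these 5 genes DMHCA 2 was the higher sample. The highest and lowest controls differed by more than 2-fold in 5 of the 10 (St3gal1, St3gal4, St6gal1, St8sia1 and Ugcg) and in 42.8% of all tested genes.

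Levels of different genes were compared in TPM, as the mean over the 5 samples of both groups. B4galnt1 (107 TPM) and St3gal5 (68.0 TPM) were the most abundant, followed by St6gal1 (26.8), St3gal4 (20.2), St3gal1 (18.2), Ugcg (11.2), St3gal3 (8.95), St3gal6 (4.87), St3gal2 (4.55) and St8sia1 (0.81). The ranges over the samples overlapped between all neighbours in this order except St3gal2 and St8sia1. The order differed between the groups. Among other changes, St3gal4 (22.6 TPM) stood above St6gal1 (22.0 TPM) in the control means, St3gal2 (5.02 TPM) stood above St3gal6 (2.48 TPM) in the DMHCA means, and in control 2 St3gal4 and St6gal1 exceeded St3gal5. In the controls B4galnt1 exceeded St3gal5 in every sample, with a St3gal5 to B4galnt1 ratio of 0.350, 0.379 and 0.253. The ratio was 0.864 in DMHCA 1+3 and 1.11 in DMHCA 2, so the transcripts of the GM3 and GM2/GD2 synthases reached similar levels with DMHCA. The ratio of St3gal5 to Ugcg was 4.999, 3.36 and 1.20 in the controls and 8.80 and 16.2 with DMHCA. The ratio of B4galnt1 to St8sia1 overlapped between the groups, with 149, 388 and 120 in the controls and 348 and 63.7 with DMHCA.

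Within the ST3Gal family the make-up of the transcripts differed between the groups. St3gal5 held 47.5%, 30.8% and 28.8% of the summed St3gal1 to St3gal6 TPM in the controls and 73.2% and 61.8% in the DMHCA samples. The means were 35.7% ± 10.3 (SD, n = 3) and 67.5% ± 8.04 (SD, n = 2). The share of St3gal6 was 5.81%, 6.65% and 11.2% in the controls and 1.495% and 1.21% with DMHCA. The share of St3gal4 was 21.2%, 46.2% and 15.03% in the controls and 4.35% and 12.3% with DMHCA, and that of St3gal2 4.2%, 6.003% and 5.19% in the controls and 1.76% and 3.37% with DMHCA. Neither share overlapped between the groups, although the normalized counts of both genes did. A share falls when another gene of the sum rises, and the summed TPM was 98.6, 76.3 and 77.0 in the controls and 156 and 216 with DMHCA. The St3gal5 to St3gal6 ratio, in which neither the sum nor the scaling of libraries enters, was 8.17, 4.64 and 2.58 in the controls and 48.9 and 50.9 with DMHCA. The plot of ST3Gal shares shows the 5 samples.

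**Figure D3:**
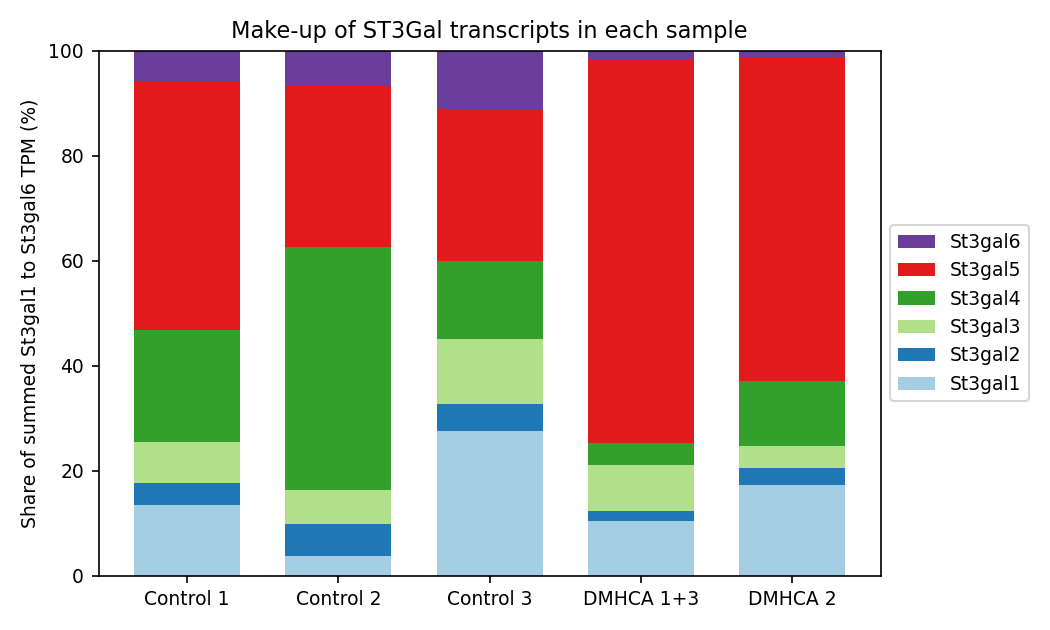
Share of each gene in the summed TPM of St3gal1 to St3gal6 (percent, stacked bars, 1 bar per sample). St3gal5 (red) holds 28.8% to 47.5% in the controls and 61.8% and 73.2% in the DMHCA samples, and St3gal6 (purple) at most 1.495% with DMHCA.

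Genes around these enzymes were counted in 6 lists by role, with 76 of 82 gene identifiers tested. St6gal2, St6galnac1, St8sia3, Sptssb, Degs2 and Neu4 did not pass the filter on low counts. No list gene had an adjusted p under 0.05 by edgeR, and at an unadjusted p under 0.05 there were 4 higher and 4 lower of the 76, beside 3.36% and 4.22% of all tested genes. The median log2 fold change over the 76 genes was 0.02, beside -0.05 over all tested genes. The plot of pathway genes by sample shows 22 of them.

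Ceramide and sphingomyelin supply had 20 tested genes, 2 of which passed the unadjusted threshold, both higher, with a median of -0.10. Col4a3bp, the older symbol of the ceramide transfer protein CERT, had 2644, 2549 and 3136 normalized counts in the controls and 4963 and 6775 with DMHCA (log2 fold change 1.08, SE 0.26). Cers6, a ceramide synthase, had 1066, 949 and 723 in the controls and 1734 and 2458 with DMHCA (1.20, SE 0.31). Neither gene's groups overlapped, and both DMHCA samples were above all controls in 13.1% of all tested genes. In the same list 3 of 20 genes, beside 12.7% of all tested genes, had both DMHCA samples below all controls without passing the threshold, the ceramide synthase Cers4 (-1.75, SE 0.82), Ormdl2 (-0.27, SE 0.24) and the glycolipid transfer gene Gltp (-0.46, SE 0.35). Degs1, the dihydroceramide desaturase, differed by 0.09 (SE 0.24). The sphingomyelin synthases Sgms1 and Sgms2, which compete with Ugcg for ceramide, differed by -0.13 (SE 0.45) and -0.30 (SE 0.32), and the glucosylceramide transfer gene Plekha8 by 0.17 (SE 0.41).

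None of the 9 other glycosphingolipid glycosyltransferases passed, and their median was 0.09. B4galt6, a lactosylceramide synthase, had 7263, 6401 and 4679 normalized counts in the controls and 11097 and 7076 with DMHCA (0.57, SE 0.32). B4galt5, the other lactosylceramide synthase, had 471 to 1170 in the controls and 748 and 516 with DMHCA. The GM1 synthase B3galt4 differed by 0.09 (SE 0.43). A4galt, which leads to globosides, had 568, 444 and 1113 in the controls but 1518 in DMHCA 1+3 and 134 in DMHCA 2. B3gnt5, which leads to the lacto series, had 68.6, 7.68 and 579 in the controls and 16.2 and 5.01 with DMHCA (-4.32, SE 1.81). B3gnt5 was highest in control 3, the sample highest in B and T cell markers, and its groups overlapped through control 2.

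Of the 10 other sialyltransferase genes tested, 1 passed, and the median was 0.41. This was St8sia5, which makes higher polysialylated gangliosides, with 55.1, 36.5 and 25.1 normalized counts in the controls and 55.6 and 206 with DMHCA (1.74, SE 0.71). DMHCA 1+3 was level with control 1, so the difference rested on DMHCA 2. St6galnac2, an O-glycan enzyme, is annotated under 2 gene identifiers. The abundant one had 4676, 5122 and 1774 counts in the controls and 4805 and 5745 with DMHCA. The other had 274, 184 and 89.5 in the controls and 274 and 430 with DMHCA (0.95, SE 0.58), which left the DMHCA samples above all controls by less than 1 count in DMHCA 1+3. St6galnac4 had 6017, 8728 and 2295 in the controls, 11484 in DMHCA 1+3 and 3179 in DMHCA 2. St6galnac6, which acts on gangliosides, had 4435, 5836 and 5578 in the controls, 10939 in DMHCA 1+3 and 4973 in DMHCA 2. In both genes DMHCA 1+3 alone was above all controls. St8sia4, a polysialyltransferase, was highest in control 3 (1444, against 219 to 364 in the other samples).

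Sialic acid supply had 9 tested genes, of which 1 was higher at the unadjusted threshold. The median was 0.39, beside -0.05 over all tested genes. The DMHCA samples differed from each other by more than 2-fold in 4 of the 9 genes, beside 23% of all tested genes. Cmah, which converts Neu5Ac to Neu5Gc on its nucleotide-linked form, had 1057, 1996 and 2278 normalized counts in the controls and 5718 and 3017 with DMHCA (1.3, SE 0.42), without overlap. Gne, the first enzyme of sialic acid synthesis, had 12187, 9349 and 3846 in the controls and 24326 and 11698 with DMHCA (1.09, SE 0.54), and DMHCA 2 lay below control 1. Cmas, which activates sialic acid with CMP, differed by 0.26 (SE 0.35). Slc35a1, which carries CMP-sialic acid into the Golgi, had 2725, 2484 and 3203 in the controls, 5659 in DMHCA 1+3 and 2594 in DMHCA 2, so only DMHCA 1+3 was above the controls.

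Among 16 tested genes of sialidases and lysosomal breakdown, 1 was lower and 0 higher at the unadjusted threshold, with a median of 0.03, and the groups did not overlap in 2 higher and 2 lower genes, near the 13.1% and 12.7% of all tested genes. Asah1, acid ceramidase, had 4733, 8761 and 5727 normalized counts in the controls and 3748 and 3385 with DMHCA (-0.85, SE 0.34). The DMHCA samples lay below all controls. Hexa, a lysosomal hexosaminidase gene, differed by -0.18 (SE 0.25), and Gm2a, the GM2 activator, by -0.45 (SE 0.34). The sialidases Neu1 and Neu3 differed by 0.16 (SE 0.23) and -0.47 (SE 0.64), and the β-galactosidase gene Glb1 by 0.10 (SE 0.35).

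The Siglec and selectin genes, whose products bind sialylated glycans on other cells, had 12 tested members with a median of -0.57, and 3 passed the unadjusted threshold, all lower, Siglecg and Siglech among them. Siglecg, a B cell receptor of sialic acid, had 125, 7.68 and 917 normalized counts in the controls and 20.7 and 9.01 with DMHCA (-4.53, SE 1.87), so its groups overlapped through control 2. Siglech, a marker of plasmacytoid dendritic cells, had 119, 49.95 and 496 in the controls and 37.9 and 18.0 with DMHCA (-2.97, SE 1.11). Control 3 was highest in both genes, as it was in B and T cell markers, and their part in these differences was not tested. Without control 3 the number of genes past the threshold over all 6 lists was 4 in place of 8, and over all tested genes it was 1019 of 18857 in place of 1480 of 19535.

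**Figure D4:**
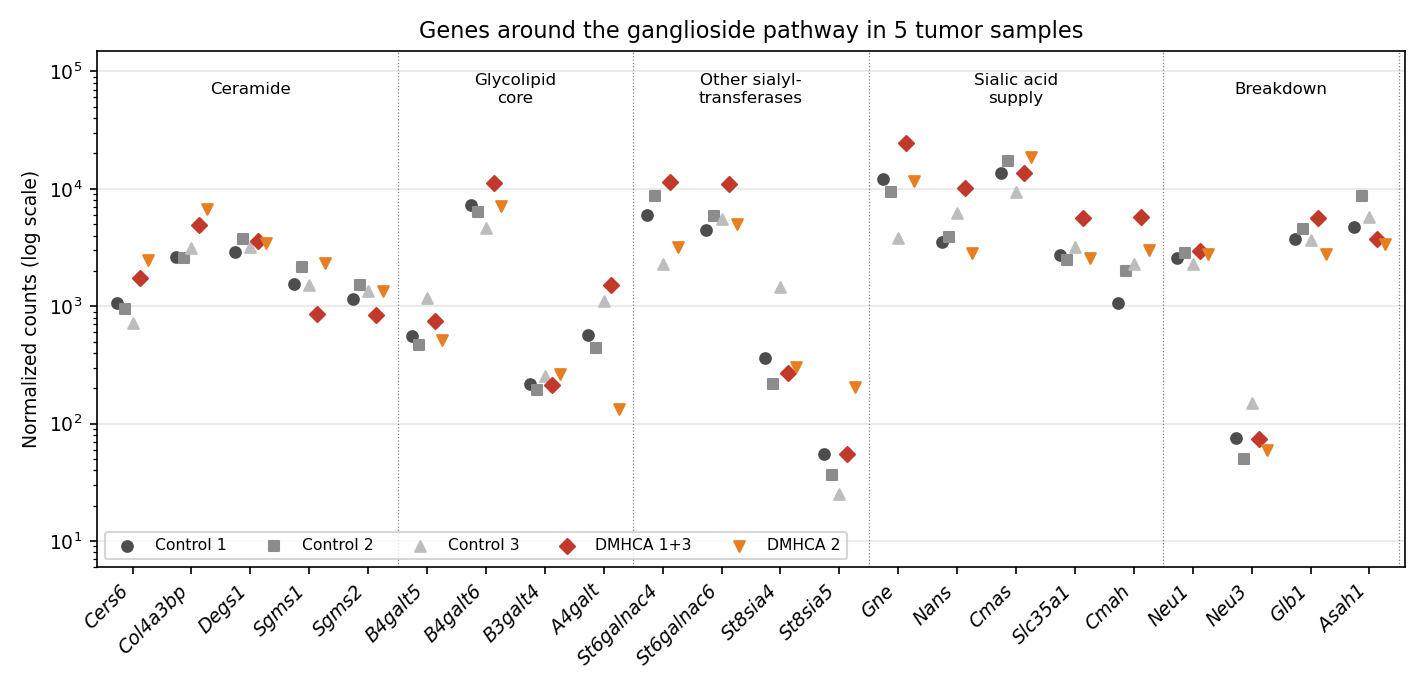
Normalized counts (log axis) of 22 genes that supply, extend, sialylate or break down glycosphingolipids, 1 point per sample, in 5 groups by role. Cers6, Col4a3bp, Cmah and St8sia5 have both DMHCA points above all controls and Asah1 both below. For St8sia5 the DMHCA 1+3 point is nearly level with control 1. Several other genes, St6galnac6 and Slc35a1 among them, are above the controls only in DMHCA 1+3.

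The genes with a pattern most like St3gal5 over the 5 samples, by the root mean square difference of centred log2 normalized counts, were BB218582 (0.11), Gm40847 (0.16), Syngr4 (0.18), Fsbp (0.19) and Gm12247 (0.19), all with at most 117 counts in any sample. For St3gal6 they were Epgn (0.05), Il2 (0.08), Plscr2 (0.11), E330011O21Rik (0.13) and Gm45848 (0.16). Plscr2, a phospholipid scramblase gene, was the abundant one, with 2295, 2748 and 2989 normalized counts in the controls and 783 and 736 with DMHCA. Epgn, an EGF-family ligand, had 26.1 to 38.2 counts in the controls and 10.1 and 10.0 with DMHCA. These genes were picked for likeness over 5 samples only.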

How the data were processed

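Per the study, tumors came from 3 mice in each group (NeuT/ATTAC, control or DMHCA), and 6 libraries were analysed. Per the submitters' processing notes and the study's methods, reads were checked with FastQC 0.11.9, trimmed with cutadapt 2.9, aligned with Bowtie2 2.4.1 and counted with RSEM 1.3.1 on mouse GRCm38 (mm10). Strand settings are not given in the sources used here. The authors deposited RSEM's expected counts per gene (estimated counts, not normalized, 19.6% to 23.5% of them not whole) and TPM, which RSEM scaled for gene length and depth. The deposited FPKM values were not used, and the effective length deposited beside them served only to weigh counts by length.

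Expected counts were rounded, DMHCA libraries 1 and 3 were summed, and 5 samples were fitted with edgeR 4.0.16 in R 4.3.3 (TMM, filterByExpr with a minimum count of 10 and total of 15, quasi-likelihood F-test, Benjamini-Hochberg over 19535 genes). The script was checked on simulated counts. The near-equal libraries were compared over genes with a mean of at least 100 counts. Alternatives used DESeq2 1.42.0 and limma 3.58.1. Gene positions are from GENCODE mouse release M21, which matched 99.6% of identifiers, and promoters from RefSeq. No protein comparison was made.

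The members and gene lists were chosen with earlier results of these data known. Named were all 10 genes, pathway genes fixed by role, the 2 genes with the smallest p in each list, the 5 genes most like St3gal5 and St3gal6, and Abca1, Abcg1 and Srebf1. Genes of this rule that are not shown are not reported here. Nans (plotted only), Cers4, Ormdl2, Gltp, Siglecg, Gm29438, 4933431G14Rik, Dcbld2, Slc26a10 and Polr1a were named after their values were seen. Summaries were made in Python 3.11.15 (numpy 2.4.6, pandas 2.3.3) and figures in matplotlib 3.10.9.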

Additional observations from a re-analysis of the deposited data

How the results depend on the processing

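The number of genes with an adjusted p under 0.05 was 0 by edgeR on 5 samples, 16 without a filter on low counts, 242 by DESeq2 on the 5 samples and 887 by DESeq2 on the 6 libraries. Pathway genes at an unadjusted p under 0.05 numbered 8, against 15 by DESeq2 and 14 by edgeR on the 6 libraries, and 4 to 12 when 1 library was left out. Over all tested genes these counts were 1480, 3655 and 2913. The replicate block gave 0 genes and 11 pathway genes, with 3207 of all genes at an unadjusted p under 0.05. Same-numbered libraries had correlations of deviations of -0.05, 0.32 and 0.33, and not every library correlated best with its own number. Deviations from a mean of 3 libraries sum to 0, and DMHCA libraries 1 and 3 are nearly identical. These correlations therefore cannot tell whether the numbers pair the samples. St3gal5 and St3gal6 kept their direction in all 16 alternatives. St6gal1 changed sign in 7, St8sia1 in 5, St3gal2 in 3, Ugcg in 2 and St3gal4 in 1. With DMHCA 2 left out the lone DMHCA sample is assumed to vary like the controls. On log2(TPM + 1) the median of all tested genes was 0.15 higher than in the edgeR fit, and relative to that shift St3gal5 differed by 1.90 and St3gal6 by -1.23. The St3gal5 share differed by 31.8 percentage points, and by 28.3 to 37.7 with 1 library left out. With 1 mismatch allowed 0.25% of promoters held a DR4 element, against 0.0152%. With 2 DMHCA samples, at 182 to 184 normalized counts of St3gal6, the SD of that group is a poor measure of its spread.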
